A study of Mus musculus with 6 samples.

Results

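The genes described here are 9 transcription factor genes at the output side of the circadian clock, measured by RNA sequencing in the hearts of 3 old and 3 young mice. They were chosen by name and with earlier results of these data known, so the number called among them is no test against all genes. They are the PAR-bZIP activators Dbp, Tef and Hlf, the bZIP repressor Nfil3, the REV-ERB nuclear receptor genes Nr1d1 and Nr1d2, the ROR nuclear receptor gene Rora, and the DEC repressor genes Bhlhe40 and Bhlhe41. All 9 were found among the 18005 genes listed, and all 9 passed the filter on low counts. Both groups were labelled as wild-type hearts with no treatment, and they differ in the labels by age group alone, old or young. The labels state no age in months, strain, sex or hour of collection. Levels of clock genes depend on the hour, and whether both groups were collected at the same hour is unknown. An effect of the hour on the differences below cannot be told apart from one of age. The series title names age-related pathological cardiac hypertrophy, and no measure of heart size accompanies the libraries used here. The libraries are called old 1 to 3 and young 1 to 3 after the numbers in the titles, which were taken to name separate animals. If they do not, the p-values measure only the spread between these samples.

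The circadian clock is a loop of transcription factors that runs in nearly every cell, heart muscle cells included. ARNTL with CLOCK or NPAS2 activates genes through E-boxes, and the PER and CRY proteins shut this activation down. The DEC proteins also repress at E-boxes. A further arm runs through the ROR response element (RORE), where ROR proteins activate and REV-ERB proteins repress, among others, Arntl itself. Another arm runs through the D-box, where DBP, TEF and HLF activate and NFIL3 represses. For the comparison by element, Dbp, Tef, Hlf, Bhlhe40 and Bhlhe41 were placed under E-boxes, Nr1d1 and Nr1d2 under E-boxes and D-boxes, Rora under D-boxes and Nfil3 under RORE sites. These classes were assigned from general knowledge of the mouse clock, less surely for Tef and Hlf, and were not measured in these hearts.

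Library totals ranged from 11295280 to 12514005 counts. Levels within a gene are given as CPM, library-scaled counts, after TMM scaling (a correction for differences in library composition), and levels between genes in FPKM, which also divides by gene length. Heart muscle markers were abundant in every library, with 6 genes (Tnnt2, Tnni3, Actn2, Ryr2, Myh6 and Pln) summing to 34169 to 37463 CPM in old and 31835 to 34382 CPM in young hearts. The summed levels of the 13 other marker lists also overlapped between the groups. In some lists only 1 old library lay within the young range. Endothelial markers summed to 1221, 1214 and 1577 CPM in old 1 to 3 and to 1731, 1505 and 1689 CPM in young 1 to 3. Red cell markers summed to 1703 to 12326 CPM among young libraries alone. Single genes within the lists were still called. Higher in old hearts were 1 cardiomyocyte, 1 fibroblast, 2 smooth muscle and pericyte, 2 macrophage, 1 T and NK cell and 1 epicardial marker. Lower were 1 endothelial, 1 fibroblast and 1 smooth muscle and pericyte marker. Ucp1 of brown fat had 0 counts in each library. The 4 adipocyte markers together had no more than 0.531 CPM in old and 1.14 CPM in young hearts. The 3 atrial markers (Sln, Myl7 and Myl4) summed to 3.97 to 5.81 CPM in old and 2.42 to 4.74 CPM in young hearts. The libraries thus held little atrial RNA. Since heart tissue was measured in bulk, a change in the share of a cell type and a change in RNA per cell cannot be told apart.

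Of the 9 output genes, 5 were higher in old hearts and 0 were lower, by edgeR's quasi-likelihood test at an adjusted p under 0.05 over 12893 genes. Dbp had the largest difference, followed by Bhlhe40, Nr1d1, Nr1d2 and Tef. Over all genes tested, 11.4% were called higher and 10.6% lower, or 22.0% in either direction. The median log2 fold change, old over young, was 0.51 over the 9 genes and -0.0065 over all tested genes. The lowest old library lay above the highest young library for 5 of the 9 genes, against 19.6% of all genes tested. The reverse held for 0 of the 9 genes and for 20.3% of all genes, so that 39.9% of all genes had groups apart in either direction. The 5 genes called higher are the same 5 whose groups did not overlap. Without old 3, 8 of the 9 genes were called higher, all except Rora. In that fit, 1597 of all 13049 genes tested were called higher.

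**Figure D1:**
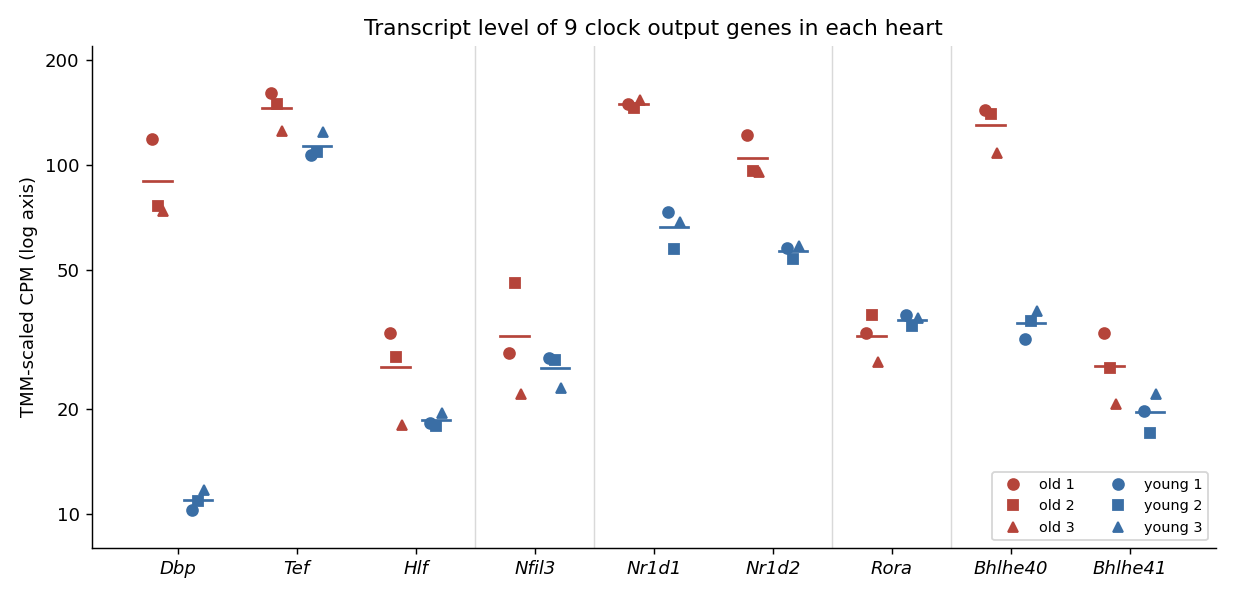
TMM-scaled CPM on a log axis for each gene, with old libraries left of young ones, a symbol for each library number and a bar at the group mean (n = 3). Dbp lies between 74.2 and 119 CPM in old hearts and between 10.2 and 11.7 CPM in young ones, while the groups of Hlf, Nfil3, Rora and Bhlhe41 overlap.

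Dbp encodes the PAR-bZIP activator whose transcript is among the most strongly cycling in mammalian tissues. It had 119, 76.6 and 74.2 CPM in old hearts, against 10.2, 10.9 and 11.7 CPM in young hearts. Every old library was thus several-fold above every young library, and old 1 stood above the other old libraries. The log2 fold change was 3.04 ± 0.18 (SE, edgeR adjusted p = 1.3e-06), or 8.22-fold, which placed Dbp 25th among all tested genes by size of rise. Exons of Dbp overlap those of Sphk2 on the opposite strand in GENCODE M21, and whether the counting used strand is unknown here. Sphk2 had 23.6, 29.5 and 22.3 CPM in old and 27.2, 26.4 and 27.8 CPM in young hearts, and its log2 fold change was -0.11 ± 0.11 (adjusted p = 0.50 in edgeR).

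Tef, the second PAR-bZIP activator, had 161, 150 and 126 CPM in old hearts, against 107, 109 and 125 CPM in young hearts. The groups did not overlap, but old 3 (125.7 CPM) and young 3 (124.9 CPM) were almost level. The log2 fold change was 0.36 ± 0.11 (edgeR adjusted p = 0.030). This call was lost without old 1 (adjusted p = 0.111), old 2 (0.0586), young 1 (0.131) or young 2 (0.0894), when only library size was scaled (0.0689), and in limma on FPKM (0.0858 to 0.14).

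Hlf, the third PAR-bZIP activator, had 33.1, 28.2 and 18.0 CPM in old hearts, against 18.3, 17.8 and 19.5 CPM in young hearts. Old 1 and old 2 lay above all young libraries and old 3 lay among them. Its log2 fold change of 0.51 ± 0.17 missed the threshold (adjusted p = 0.055 in edgeR, 95% interval 0.13 to 0.89). Hlf was called without old 3 (0.73, adjusted p = 0.000363), with DESeq2 (0.0291) and with no filter (0.0314).

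The 3 PAR-bZIP genes made up different parts of their summed level in the groups. In FPKM, their sum was 77.9, 57.4 and 52.8 in old hearts and 25.7, 25.4 and 29.3 in young hearts. Dbp was 55.8% ± 4.37 of this sum in old hearts and 16.9% ± 0.461 in young hearts (SD, n = 3 each). Tef was 37.4% ± 4.01 of it in old hearts and 71.1% ± 0.644 in young hearts, so Tef was the most abundant of the 3 in young hearts and Dbp in old hearts. The log2 ratio of Dbp to Tef counts within a library was -0.72 ± 0.27 in old and -3.37 ± 0.05 in young hearts. The difference of 2.65 had an exact 2-sided permutation p of 0.1, the smallest that 3 against 3 libraries can give, and 0.14 after adjustment over the 7 ratios compared. The ratio of Dbp to Hlf differed by 2.54 on the log2 scale, again without overlap between groups (exact p = 0.1). The ratio of Tef to Hlf was 2.28, 2.41 and 2.80 in old and 2.55, 2.61 and 2.68 in young libraries on the log2 scale. Those groups overlapped, and the difference of -0.11 had an exact permutation p of 0.5.

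**Figure D2:**
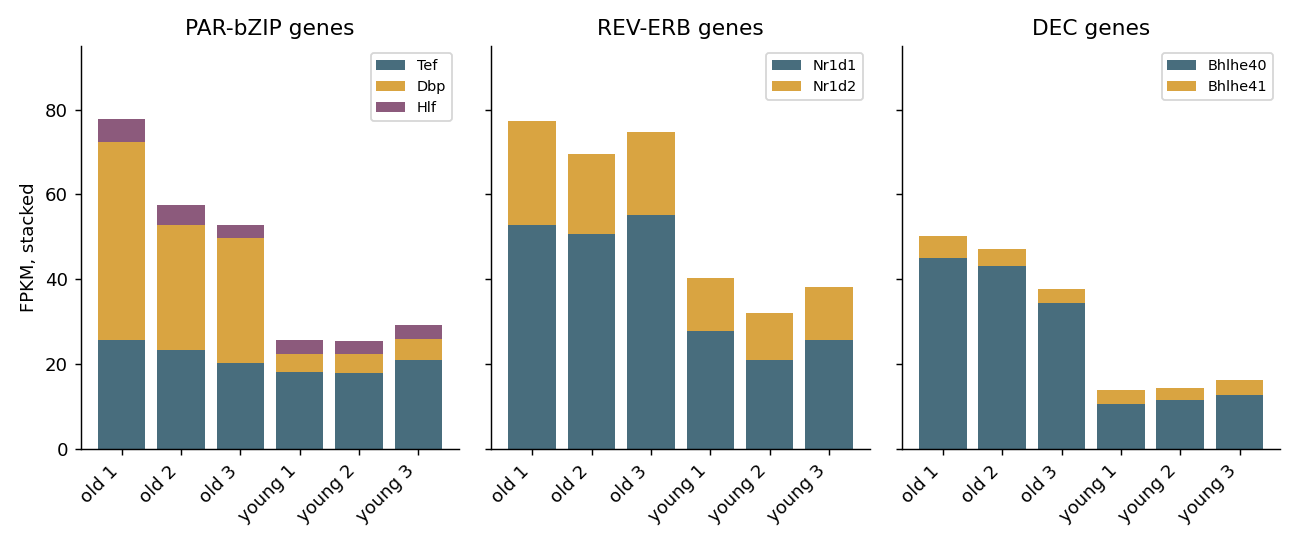
Stacked FPKM of the PAR-bZIP, REV-ERB and DEC genes in each of the 6 libraries, old left of young, on a common axis that starts at 0. The Dbp part of the PAR-bZIP sum is 51.3% to 60.1% in old libraries and 16.6% to 17.4% in young ones.

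Nfil3, also known as E4BP4, encodes the repressor that competes with the PAR-bZIP activators for the D-box. It had 29.0, 46.1 and 22.1 CPM in old hearts, against 28.0, 27.6 and 23.0 CPM in young hearts. Old 2 was the highest and old 3 the lowest of all 6 libraries, so the old group enclosed the young one. At 0.31 ± 0.21 its log2 fold change was not called (adjusted p = 0.31 in edgeR, 95% interval -0.14 to 0.76). Single libraries set both its direction and its call: the value was -0.03 without old 2 (adjusted p = 0.905) and 0.53 without old 3 (adjusted p = 0.0338). The log2 ratio of Dbp to Nfil3 was 2.04, 0.73 and 1.75 in old libraries and -1.45, -1.34 and -0.97 in young libraries, a difference of 2.76 (exact permutation p = 0.1, adjusted p = 0.14). Dbp counts exceeded Nfil3 counts in every old library and were below them in every young library. In FPKM, the summed PAR-bZIP activators stood at 12.3, 5.83 and 10.8 times the Nfil3 level in old hearts and at 3.94, 4.07 and 5.51 times in young hearts.

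Nr1d1 encodes REV-ERB alpha, a heme-binding repressor at RORE sites. It had 150, 146 and 154 CPM in old hearts, against 73.6, 57.5 and 68.8 CPM in young hearts. It was the most even of the 9 genes among old libraries, and it was the only 1 of the 9 for which old 3 was the highest old library. It was higher in old hearts by 1.17 ± 0.10 on the log2 scale (adjusted p = 1.4e-05 in edgeR), or 2.25-fold. Exons of Nr1d1 overlap those of Thra, the thyroid hormone receptor alpha gene on the opposite strand. Thra had 136, 142 and 144 CPM in old hearts, against 160, 165 and 166 CPM in young hearts, and its value of -0.22 ± 0.08 on the log2 scale (adjusted p = 0.061 in edgeR) had the opposite sign to that of Nr1d1. Thra was called lower with upper-quartile scaling, when only library size was scaled and in limma on FPKM (-0.26 to -0.30).

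Nr1d2 encodes REV-ERB beta. It had 122, 96.5 and 95.9 CPM in old hearts, against 57.9, 53.9 and 58.7 CPM in young hearts. All old libraries were above all young ones, with old 1 the highest. It was higher by 0.88 ± 0.10 on the log2 scale (edgeR adjusted p = 0.00015), or 1.84-fold. The log2 ratio of Nr1d1 to Nr1d2 was 0.29, 0.60 and 0.68 in old and 0.35, 0.09 and 0.23 in young libraries. The groups overlapped, and the difference of 0.30 had an exact permutation p of 0.2 (adjusted p = 0.23). Nr1d1 made up 71.6% ± 2.93 of the summed REV-ERB FPKM in old hearts and 67.2% ± 1.96 in young hearts (SD, n = 3 each).

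Rora encodes an activator at the same RORE sites. It had 32.9, 37.2 and 27.3 CPM in old hearts, against 37.2, 34.7 and 36.4 CPM in young hearts. It was the only gene of the 9 with a fold change below 0, which was not called (-0.15 ± 0.11, adjusted p = 0.33 in edgeR, 95% interval -0.39 to 0.08). Its value was below 0 in each of the 17 alternative fits and was called in 0 of them. The log2 ratio of Nr1d1 to Rora was 2.18, 1.98 and 2.496 in old and 0.98, 0.73 and 0.92 in young libraries, a difference of 1.34 without overlap (exact permutation p = 0.1, adjusted p = 0.14). In FPKM, the summed REV-ERB level was 36.0, 29.3 and 41.4 times that of Rora in old hearts and 15.5, 13.7 and 15.2 times in young hearts.

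**Figure D3:**
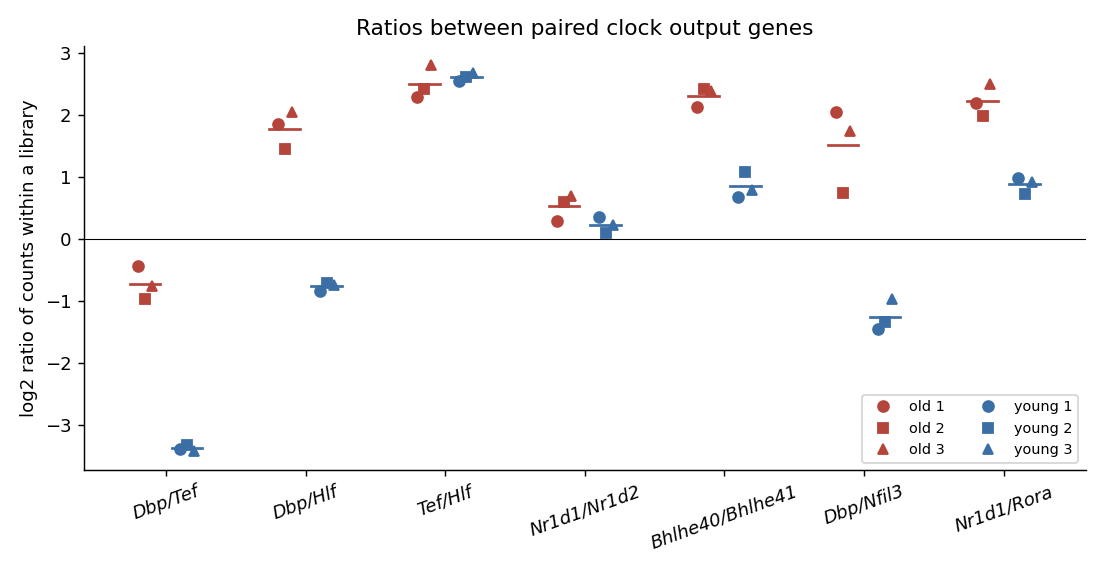
Log2 ratio of counts of a pair of genes within each library, old left of young, with bars at group means (n = 3). The groups stand apart for 5 of the 7 pairs, and those of Tef/Hlf and Nr1d1/Nr1d2 overlap.

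Bhlhe40 encodes DEC1, a repressor at E-boxes that is also known to respond to hypoxia, cytokines and other stimuli. It had 144, 141 and 108 CPM in old hearts, against 31.7, 35.8 and 38.2 CPM in young hearts. The lowest old library, old 3, was still far above the highest young library. The rise was 1.89 ± 0.12 on the log2 scale (edgeR adjusted p = 2.1e-06), or 3.71-fold.

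Bhlhe41 encodes DEC2, its paralogue. It had 32.9, 26.3 and 20.7 CPM in old hearts, against 19.8, 17.0 and 22.1 CPM in young hearts. Old 3 fell within the young range. Its log2 fold change of 0.44 ± 0.15 missed the threshold (adjusted p = 0.063 in edgeR, 95% interval 0.10 to 0.77). Bhlhe41 was called without old 3 (0.60, adjusted p = 0.00564), with DESeq2 (0.0482) and with no filter (0.0413). The log2 ratio of Bhlhe40 to Bhlhe41 was 2.12, 2.42 and 2.38 in old and 0.68, 1.07 and 0.78 in young libraries, a difference of 1.46 (exact permutation p = 0.1, adjusted p = 0.14). Bhlhe40 made up 90.7% ± 0.968 of the summed DEC FPKM in old hearts and 77.9% ± 2.37 in young hearts.

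Per unit of length, the order of the 9 genes differed between the groups. In old hearts Nr1d1 was highest at 52.9 ± 2.28 FPKM (SD, n = 3), followed by Bhlhe40 at 40.8 ± 5.67, Dbp at 35.3 ± 9.99, Tef at 23.1 ± 2.72 and Nr1d2 at 21.0 ± 3.06 FPKM. Nfil3 at 7.02 ± 2.55, Hlf at 4.32 ± 1.23, Bhlhe41 at 4.22 ± 0.957 and Rora at 2.11 ± 0.287 FPKM followed. In this order the ranges of Bhlhe40 and Dbp, of Tef and Nr1d2, of Nfil3 and Hlf, and of Hlf and Bhlhe41 overlapped. In young hearts Nr1d1 was also first at 24.8 ± 3.5 FPKM, and Tef was next at 19.1 ± 1.73. Nr1d2 at 12.04 ± 0.722, Bhlhe40 at 11.6 ± 1.02, Nfil3 at 6.02 ± 0.629 and Dbp at 4.53 ± 0.298 FPKM followed. Bhlhe41 at 3.30 ± 0.467, Hlf at 3.21 ± 0.182 and Rora at 2.48 ± 0.131 FPKM came last. Here the ranges of Nr1d1 and Tef, of Nr1d2 and Bhlhe40, and of Bhlhe41 and Hlf overlapped. Dbp was thus sixth of 9 in young hearts and the third in old hearts, where its range overlapped that of Bhlhe40.

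Promoter sequences are shown for the genes whose class assignment is visible as a short motif near the start, with Dbp beside them as the gene of largest rise. RefSeq promoters of the GRCm38.p6 build were found for 8 of the 9 genes (Bhlhe40 being the exception) and held 9 promoters, 2 of them for Tef. Windows of 300 bases, from 250 before to 50 after the annotated start, were searched on both strands for the E-box CACGTG, its variant AACGTG, the D-box forms TTATGNAA and TTANGTAA, which overlap in sequence, and the RORE cores TAGGTCA and TGGGTCA. Of all 32851 promoters in the table, 7.15% held CACGTG, 4.68% AACGTG, 3.38% TTATGNAA, 2.32% TTANGTAA, 2.61% TAGGTCA and 3.98% TGGGTCA. The 250 bases before the start are printed 5′ to 3′ on the gene's strand, with motif letters in capitals.
Dbp promoter, chr7:45704997-45705246 (+): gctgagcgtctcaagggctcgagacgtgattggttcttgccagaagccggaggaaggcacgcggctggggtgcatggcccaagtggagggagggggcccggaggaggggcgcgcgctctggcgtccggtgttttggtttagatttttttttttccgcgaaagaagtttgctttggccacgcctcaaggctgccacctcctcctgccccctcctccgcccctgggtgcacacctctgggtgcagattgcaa
Tef promoter 1, chr15:81802423-81802672 (+): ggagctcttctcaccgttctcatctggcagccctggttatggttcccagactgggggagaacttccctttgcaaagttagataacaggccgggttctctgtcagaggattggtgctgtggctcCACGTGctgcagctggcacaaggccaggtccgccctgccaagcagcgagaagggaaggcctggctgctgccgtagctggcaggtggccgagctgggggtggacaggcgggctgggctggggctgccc
Tef promoter 2, chr15:81811164-81811413 (+): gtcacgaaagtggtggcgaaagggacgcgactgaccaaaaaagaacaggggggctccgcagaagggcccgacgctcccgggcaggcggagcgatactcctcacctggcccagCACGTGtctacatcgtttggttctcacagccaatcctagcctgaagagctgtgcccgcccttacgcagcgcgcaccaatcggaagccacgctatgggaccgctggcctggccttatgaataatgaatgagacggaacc
Bhlhe41 promoter, chr6:145865421-145865670 (-): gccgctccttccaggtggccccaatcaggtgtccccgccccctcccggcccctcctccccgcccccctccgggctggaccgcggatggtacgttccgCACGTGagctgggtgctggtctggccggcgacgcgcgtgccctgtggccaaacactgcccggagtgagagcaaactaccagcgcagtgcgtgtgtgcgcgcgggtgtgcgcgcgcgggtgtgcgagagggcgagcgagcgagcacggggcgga
Nr1d1 promoter, chr11:98775378-98775627 (-): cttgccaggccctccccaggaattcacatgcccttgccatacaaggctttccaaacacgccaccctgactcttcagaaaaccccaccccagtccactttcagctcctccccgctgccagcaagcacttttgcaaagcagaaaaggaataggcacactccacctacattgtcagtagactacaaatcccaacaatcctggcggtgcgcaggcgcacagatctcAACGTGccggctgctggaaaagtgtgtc
Nfil3 promoter, chr13:52981040-52981289 (-): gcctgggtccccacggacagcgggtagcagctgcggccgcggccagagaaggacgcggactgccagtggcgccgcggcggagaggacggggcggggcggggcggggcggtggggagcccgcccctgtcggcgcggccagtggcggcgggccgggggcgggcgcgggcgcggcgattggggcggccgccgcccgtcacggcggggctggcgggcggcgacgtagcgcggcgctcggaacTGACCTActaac
Both promoters of Tef and that of Bhlhe41 held the palindromic E-box, which began at position -127 and -138 in Tef and -153 in Bhlhe41, counting the base before the start as -1. The Nr1d1 promoter held the variant AACGTG from position -28. The Nfil3 promoter held the RORE core on the reverse strand, as TGACCTA from position -12. The windows of Dbp, Hlf, Nr1d2 and Rora held none of these letters, and no D-box form was found in any of the 9 windows. A match is a string of letters and no measured site. Genes with an E-box match included Tef and Nr1d1, which were called higher, and Bhlhe41, which was not called. The build of these coordinates is older than that of the submitters' processing notes, and the coordinates only identify the sequences.

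The other genes of the loop were compared by the same element classes. Of 16 feedback loop genes, 15 were tested. By edgeR, 4 were higher and 5 lower in old hearts, with a median log2 fold change of 0.17. Among all genes tested, 11.4% were called higher and 10.6% lower. This list and those below were chosen with earlier results of these data known, so their counts are no test against these shares. Together with the 9 output genes, 19 genes are given by class. Of 7 genes under E-boxes only, 4 were higher and 0 lower (median log2 fold change 0.51, which is the value of Hlf). The placing of Tef, Hlf, Cry2 and Ciart in this class is the least sure. Of 4 genes under both E-boxes and D-boxes, 4 were higher (median 1.57), and of 3 under D-boxes only, 1 was higher and 0 lower (median 0.57). Of these 3, Rorb was near the floor, with 12, 12 and 10 counts in old and 8, 2 and 6 counts in young libraries, and was not called. Cry1, a repressor gene under both E-boxes and RORE sites, was not called (-0.22 ± 0.12, adjusted p = 0.20 in edgeR). Of 4 genes under RORE sites only, 3 were lower and 0 higher (median -0.94). Nfil3 was the single gene of the RORE class with a value above 0, and Rora the single gene of the D-box class with a value below 0; neither was called.

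**Figure D4:**
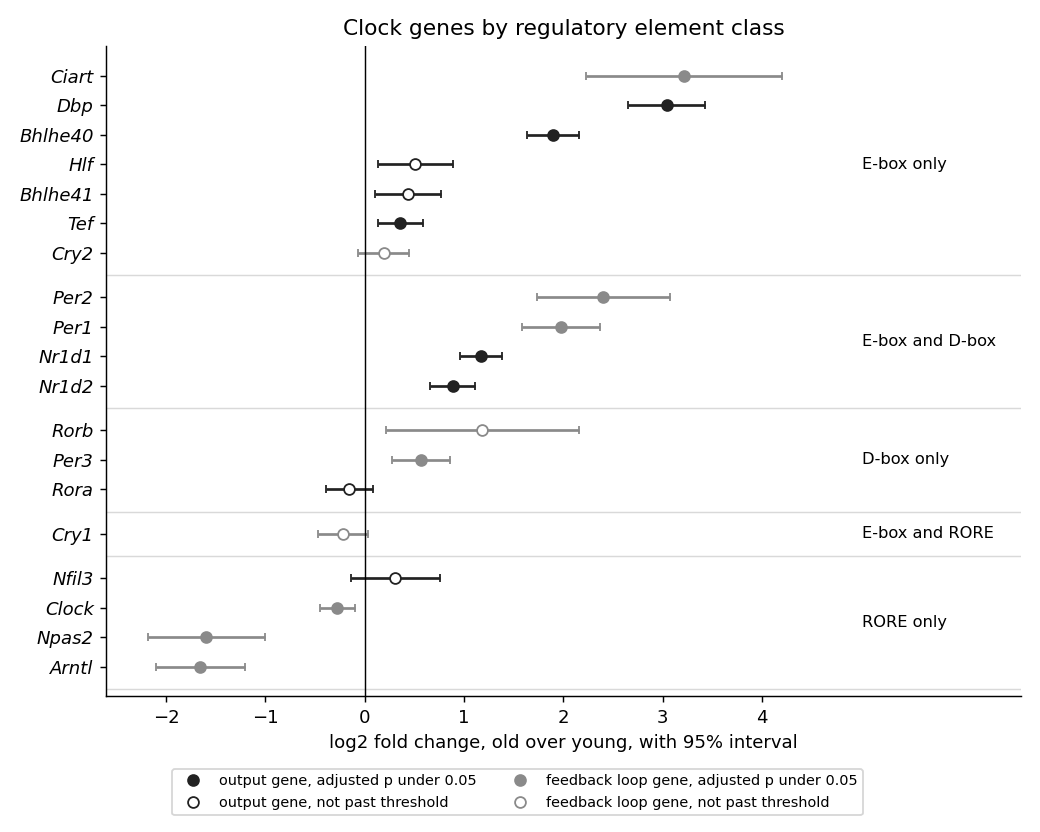
Log2 fold change, old over young, with its 95% interval from edgeR for 19 clock genes grouped by assigned element class, output genes in black and feedback loop genes in grey, filled where the adjusted p is under 0.05. Values run from 0.19 to 3.21 for the E-box class and from -1.65 to 0.31 for the RORE class.

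Per2, a repressor of ARNTL with CLOCK, had 50.9, 51.2 and 19.7 CPM in old hearts, against 7.57, 6.85 and 8.51 CPM in young hearts (log2 fold change 2.40 ± 0.30, edgeR adjusted p = 0.00026). Ciart, which encodes another repressor of that pair, had 22.7, 10.3 and 6.41 CPM in old and 1.17, 1.76 and 1.32 CPM in young hearts (3.21 ± 0.45, edgeR adjusted p = 0.00051), and its log2 fold change was 2.57 without old 1. For these genes too, old 3 was the lowest old library. Arntl, the RORE-driven activator gene that the REV-ERB proteins repress, had 6.73, 12.4 and 16.1 CPM in old hearts, against 39.4, 36.0 and 35.5 CPM in young hearts (-1.65 ± 0.21, edgeR adjusted p = 0.00022). Among old libraries Arntl was thus highest in old 3, and Npas2 likewise had 3.19, 2.85 and 7.63 CPM, against 14.4, 13.2 and 13.8 CPM in young libraries (-1.60 ± 0.27, edgeR adjusted p = 0.0018). Per1 (1.97 ± 0.18) and Per3 (0.57 ± 0.13) were also higher, and Clock (-0.28 ± 0.08) was also lower. The call of Clock was lost with DESeq2 (adjusted p = 0.0513), where 4 feedback loop genes were lower, and without old 1, old 3, young 1 or young 3. Without young 1 or young 3, 3 feedback loop genes were lower in place of 5. The call of Per3 was lost without young 1 (adjusted p = 0.0542 in edgeR) and in limma on unfiltered FPKM (adjusted p = 0.0961).

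Genes named in other tissues as targets of these factors did not share a direction. Their counts stand beside shares of 11.4% higher and 10.6% lower among all genes tested. Of 7 D-box targets known from mouse liver and kidney, 5 were tested, of which 2 were higher and 0 lower (median log2 fold change 0.37). Alas1, the first enzyme of heme synthesis, had 192, 295 and 172 CPM in old hearts, against 126, 116 and 127 CPM in young hearts (0.84 ± 0.16, edgeR adjusted p = 0.0041). Cyp2b10 was called at a low level, 3.71 ± 0.848 CPM in old and 0.854 ± 0.402 CPM in young hearts (2.13 ± 0.33, edgeR adjusted p = 0.0010), and reads shared with near-identical Cyp2b genes make this value uncertain. Of 11 genes that REV-ERB proteins are known to bind or repress, 10 were tested, of which 2 were higher and 4 lower (median -0.17). Besides Arntl, Npas2 and Clock, the lower genes held Cx3cr1, a chemokine receptor of macrophages, with 3.63, 2.33 and 3.03 CPM in old and 15.1, 13.3 and 11.5 CPM in young hearts (-2.15 ± 0.18, edgeR adjusted p = 1.7e-05). Of the higher genes, the chemokine gene Ccl2 had a log2 fold change of 1.53 ± 0.30 (adjusted p = 0.0041 in edgeR), a call lost in limma on unfiltered FPKM (adjusted p = 0.0564).

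Of 15 genes reported as outputs of the clock in heart or in several tissues, 7 were higher and 1 lower in old hearts. Their median log2 fold change was 0.64. The shares among all genes tested were 11.4% higher and 10.6% lower. Bdh1, an enzyme of ketone body use, had 239 ± 5.81 CPM in old and 55.1 ± 2.99 CPM in young hearts (SD, n = 3; log2 fold change 2.12 ± 0.08, edgeR adjusted p = 5.1e-08). Noct, which encodes the phosphatase nocturnin, rose by 2.18 ± 0.18, the titin cap gene Tcap by 1.46 ± 0.13 and the deubiquitinase gene Usp2 by 1.16 ± 0.12. The lower gene was Nampt of NAD synthesis (-0.28 ± 0.09, edgeR adjusted p = 0.037), which kept its call without old 2 but not without any of the other 5 libraries.

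Genes with the most similar profile were sought for the 5 called genes by the root mean square distance between log2 CPM profiles over the 6 libraries, each centred on its mean, among 9565 named genes of mean log2 CPM at least 3. Closest to Dbp were the cochaperone gene Dnajb1 at a distance of 0.29 and the small Maf factor gene Maff at 0.33. Their order among old libraries was not the same. Dnajb1 had 219, 221 and 264 CPM in old 1 to 3 and was highest in old 3. Maff had 84.5, 83.4 and 54.9 CPM and was, like Dbp, highest in old 1. Closest to Bhlhe40 were Hspb1, a small heat shock protein gene, at 0.088, the AP-1 gene Fosl2 at 0.13 and Cds1 at 0.14. Closest to Nr1d1 were the complement gene C4b at 0.070, Lnx1 at 0.083 and Tbx3 at 0.12. Closest to Nr1d2 were Arl5b at 0.055, Efhd1 at 0.068 and the collagen chaperone gene Serpinh1 at 0.070. Closest to Tef were Triobp at 0.049, Erlin1 at 0.052 and Cmklr1 at 0.055. Genes of smaller change have smaller distances by the nature of the measure. The distance also takes in the difference between the groups, so a small one need not mean a shared order among old libraries.

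Genes of 3 other lists were also higher in old hearts. Of 18 immediate early genes, which respond within minutes to stimulation, 17 were higher in old hearts. Of 10 heat shock genes, 10 were higher, and of 10 glucocorticoid responsive genes, 8 were higher, and 0 genes of these lists were lower. By comparison, 11.4% of all genes tested were called higher and 10.6% lower. These lists too were chosen with earlier results of these data known, so their counts only describe them. Among the immediate early genes, the orphan receptor gene Nr4a3 was higher by 4.80 ± 0.27 on the log2 scale, the AP-1 genes Fosb by 4.09 ± 0.25 and Fosl2 by 1.87 ± 0.11, and Ier3 by 1.38 ± 0.11. Among the heat shock genes, the chaperone genes Hspa1b (6.77 ± 0.17), Hspa1a (6.57 ± 0.21), Dnajb1 (2.97 ± 0.13) and Hspb1 (1.80 ± 0.10) had the smallest p; Hspa1a and Hspa1b are near-identical copies, so the split of reads between them is uncertain. Among the glucocorticoid responsive genes these were Fkbp5 (1.46 ± 0.16), Klf9 (0.73 ± 0.09), Sgk1 (1.43 ± 0.17) and the metallothionein gene Mt2 (1.27 ± 0.18). The median log2 CPM minus the young mean was 1.86, 1.92 and 3.53 in old 1 to 3 and -0.49 to 0.28 in young libraries for immediate early genes. For heat shock genes it was 2.20, 1.99 and 1.62 in old and -0.09 to 0.07 in young libraries, and for glucocorticoid responsive genes 1.03, 1.01 and 0.88 in old and -0.34 to 0.14 in young libraries. Among the old libraries the immediate early median was highest in old 3, where the median of the 9 output genes was lowest, at 0.15, against 0.83 in old 1 and 0.76 in old 2. The 0.15 is the value of Tef. In old 3 Dbp stood at 2.75, Bhlhe40 at 1.62, Nr1d1 at 1.22 and Nr1d2 at 0.75. Bhlhe41 stood at 0.08, Hlf at -0.04, Nfil3 at -0.24 and Rora at -0.40 there. The part of these lists in the levels of the output genes was not tested.

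Old 3 was the lowest old library for 8 of the 9 output genes, all except Nr1d1, while it was the lowest for 34.7% of all tested genes. For Dbp and Nr1d2 it was nearly level with old 2, and old 1 was the library apart. As log2 CPM minus the young mean, the median of the 5 output genes under E-boxes only was 0.83, 0.60 and 0.15 in old 1 to 3, and lay between -0.08 and 0.12 in young libraries. The median was the value of Hlf in old 1 and old 2 and of Tef in old 3. In old 3 the genes were spread widely, with Dbp at 2.75, Bhlhe40 at 1.62, Tef at 0.15, Bhlhe41 at 0.08 and Hlf at -0.04. The median of Nr1d1 and Nr1d2 was 1.14, 0.95 and 0.99 in the old libraries and -0.14 to 0.09 in the young ones. That of Rora and Nfil3 was 0.01, 0.43 and -0.32 in the old libraries, which enclosed the young values of -0.08 to 0.07. Dbp, Bhlhe40, Nr1d1 and Nr1d2 were called whichever library was left out, with log2 fold changes of 2.79 to 3.17, 1.82 to 2.02, 1.07 to 1.25 and 0.77 to 0.95.

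**Figure D5:**
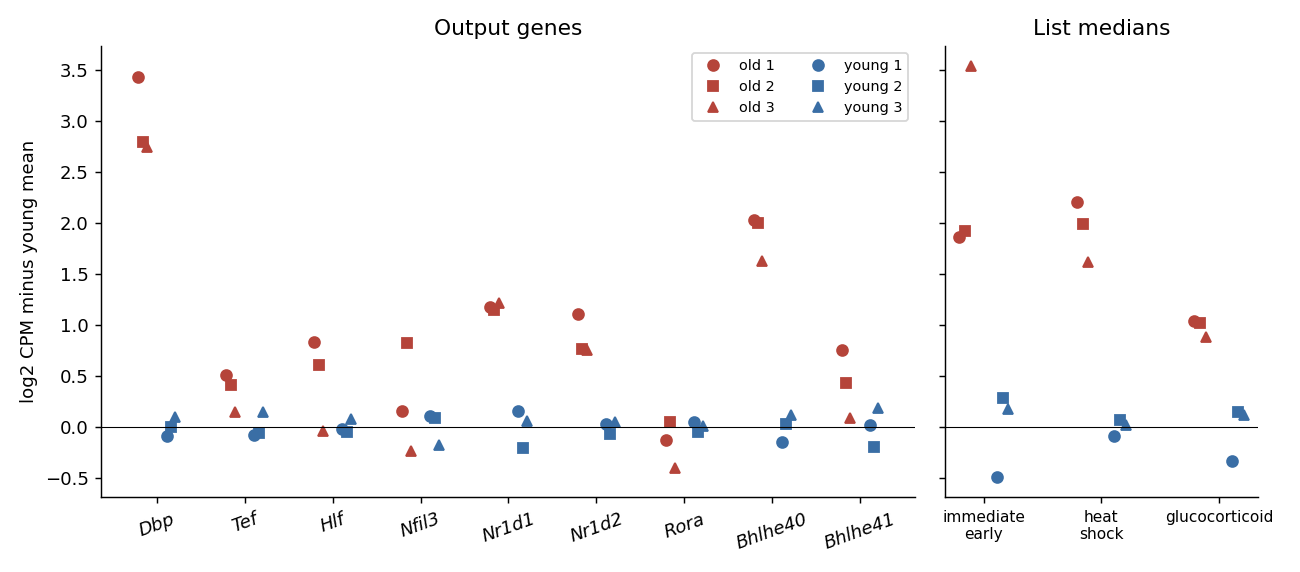
Log2 CPM minus the young mean for each output gene and, on the right, the median of the immediate early, heat shock and glucocorticoid responsive lists, with old libraries left of young ones and a symbol for each library number. Old 3 has the lowest old value for 8 of the 9 genes and the highest immediate early median, at 3.53.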

How the data were processed

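RNA of 6 mouse hearts was extracted with a mirVana miRNA isolation kit and prepared with TruSeq Stranded mRNA chemistry, per the labels' protocols. The deposited counts are raw reads per gene. FPKM values were deposited by the authors beside them: dividing counts by FPKM gave a single length for each gene within a relative deviation of 6.9e-07. Per the submitters' processing notes the build was GRCm39, and the tools were HISAT2, HTSeq, Trimmomatic, StringTie, Cufflinks, DESeq and Bowtie2. What each tool did, in which version, and how strand was counted is not stated there. The counts of replicate libraries varied beyond sampling noise (chi-square per degree of freedom 7.9 to 16.7).

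edgeR 4.0.16 (R 4.3.3) was run on the counts (filterByExpr, TMM, quasi-likelihood F test, no covariate, all 6 libraries). Benjamini-Hochberg adjustment ran over 12893 genes, and genes under 0.05 are called. The standard error is the absolute log2 fold change over the square root of F. Ratios between genes used counts with 0.5 added and an exact 2-sided permutation test. Alternatives were DESeq2 1.42.0, limma 3.58.1 (voom, and log2 of FPKM with 1 or 0.1 added), other scalings and filters, a replicate block and each library left out.

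The 9 genes and all lists were chosen with earlier results of these data known. All 9 are named whatever their result, and each list's called genes up to 4 in each direction by smallest p. Clock, the uncalled Thra, Cry1, Cry2 and Rorb and, of the 3 nearest profiles of each called gene, those given are also named. Some genes that these rules select are not reported here, though counts and medians of the lists include them. Sphk2 was chosen after its overlap with Dbp was seen.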

Additional observations from a re-analysis of the deposited data

How the results depend on the processing

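Dbp, Bhlhe40, Nr1d1 and Nr1d2 were called higher in each of the 17 alternative fits, Tef in 9, Hlf and Bhlhe41 in 3 each, Nfil3 in 1 and Rora in 0. The number of output genes called higher was 4 to 8 with a library left out, and 0 were called lower throughout; the highest count, 8, was without old 3. It was 5 under RLE and upper-quartile scaling, 7 with no filter and with DESeq2, and 4 when only library size was scaled or limma was run on FPKM. Nfil3 changed sign without old 2, at -0.02874, and was called without old 3, at 0.5298; the cause was not tested. With a library left out, 1552 to 3041 genes were called in all, with fewest without young 3 and 1557 without young 1, against 2835 with all libraries. Feedback loop genes called lower then numbered 3 to 5. Counts of target lists with a library left out were added after seeing the data: the cardiac output list held 0 to 1 lower genes.

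Same-numbered libraries of the groups were not treated as pairs in the main fit. Their deviations from the group means correlated at 0.077, 0.067 and 0.0037. Old 1 correlated best with its own number, and old 2 and old 3 did not. With 3 libraries in each group, these values cannot decide whether the libraries were paired. With the replicate block 2734 genes were called, and 5 output genes were higher.

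The share of all calls that were higher in old hearts was 51.7% with TMM, 40.2% with upper-quartile scaling, 32.7% with library size only, and 35.1% to 38.1% in limma on FPKM. The median of all genes moved to -0.09 with library size only, and the called output genes kept their direction there. The 7 pair ratios do not depend on scaling and kept their sign in each alternative.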
